A study of Mus musculus with 32 samples.

Results

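The respiratory chain of the mitochondrial inner membrane is a series of protein complexes, and most of their subunits are encoded in the nucleus. The nuclear-encoded subunits were taken as the protein-coding genes whose GENCODE M21 symbol begins with Nduf and a subunit letter (complex I), Sdh (complex II), Uqcr (complex III), Cox4 to Cox8 (complex IV) or Atp5 (complex V). The rule found 71 of the 27728 genes in the table: 35 of complex I, 3 of complex II, 6 of complex III, 13 of complex IV and 14 of complex V. GENCODE M21 holds 85 genes that match it, and the other 14 were not analysed here. The rule goes by name, and names and roles differ in places: Ndufa4 is known as a subunit of complex IV, and Cox7a2l as a factor that joins complexes III and IV. The 13 subunits encoded by mitochondrial DNA were not analysed here.

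Complex I takes electrons from NADH, complex II takes them from succinate as part of the tricarboxylic acid cycle, and both pass them to ubiquinone. Complex III hands the electrons on to cytochrome c, complex IV uses them to reduce oxygen, and complex V (ATP synthase) makes ATP from the proton gradient that complexes I, III and IV build. Blood stem cells are known to rely more on glycolysis, and the committed progenitors below them more on respiration. Transcription of the nuclear subunit genes is known to be driven through promoter sites for NRF1, for ETS factors such as GABPA, and for YY1.

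RNA sequencing (ribosomal RNA removed, paired reads of 150 bases) was deposited for 32 libraries of mouse progenitors that had been sorted for cKit and against Sca1 and lineage markers. The study varied the dose of the splicing factor U2af1 in such cells. Fetal liver cells at E14.5 (embryonic day) came from U2af1(flox/flox) embryos with no Cre (flox control, n = 3), Vav1-Cre/U2af1(wt/flox) embryos (heterozygous deletion, n = 3), Vav1-Cre/U2af1(flox/flox) embryos (homozygous deletion, n = 3), Vav1-Cre embryos with no U2af1 change (n = 2) and Vav1-Cre/U2af1(wt/S34F) embryos (n = 4). Vav1-Cre is driven by a promoter of the blood lineage, so these embryos delete in blood cells and not in hepatocytes. The flox control, both deletions and 1 Vav1-Cre library carried the label of batch A, and the S34F libraries and the other Vav1-Cre library that of batch B. Adult bone marrow came from mice that carried Mx1-Cre, rTA and the transgene tgU2AF1(WT) on a U2af1(flox/S34F) background and were given polyinosinic-polycytidylic acid (pIpC), which turns on Mx1-Cre, and doxycycline, which turns on the wild-type transgene, in chow: 4 libraries had 1250 ppm, 6 had 2500 ppm and 4 had 10000 ppm. As the adult control, 3 untreated libraries carried the same 3 transgenes on a U2af1(wt/wt) background, so they differed from the dosed mice in the U2af1 alleles, in pIpC and in doxycycline together. No adult group had doxycycline without pIpC, and no batch was given for the adults. The count of U2af1 was not analysed here and gave no check of the deletions.

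Total counts ran from 26.6 M to 71.3 M per library (M, 1000000 counts). The subunit genes took 0.928 to 1.47% of them. All 7 markers of cKit-positive progenitors were detected, with a summed level of 2126 to 3124 counts per 1000000 (CPM). Some of them differed between the fetal deletion groups and 1 between adult doses, as given below. Scaling of CPM used TMM factors (trimmed mean of M values), computed separately for the fetal and the adult libraries, so fetal and adult CPM are not compared. Levels of different genes are compared as transcripts per 1000000 (TPM), which divides by transcript length. The labels do not say how many animals gave each library, so p-values measure the spread between libraries. In bulk RNA, fewer cells of a type and less RNA per cell cannot be told apart. Overlap with a gene on the other strand was found for 27 of the subunit genes, and whether the counting used strand is not given in the sources used here.

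Complex V and complex IV genes stood at the top of the level order and 4 isoform genes at the bottom. In the flox control, Atp5b, the catalytic beta subunit of ATP synthase, was at 2557 ± 87.7 TPM (SD, n = 3) and Atp5a1, its alpha partner, at 1537 ± 41.65 TPM. Cox4i1, the common form of the complex IV regulatory subunit, was at 1485 ± 27.75 TPM and Cox8a, a small structural subunit of the same complex, at 1485 ± 28.3 TPM, so Atp5a1, Cox4i1 and Cox8a did not differ beyond their spread. The highest gene of the complex I set was Ndufa4 at 706.5 ± 9.52 TPM, that of complex III Uqcr11 at 736 ± 44.4 TPM, and that of complex II Sdhd, a membrane anchor, at 384 ± 33.5 TPM. At the low end, Ndufb2 was at 46.05 ± 1.27 TPM in complex I, Uqcrc2, a core subunit, at 242 ± 17.2 TPM in complex III, and Atp5g1, which encodes the c subunit of the membrane ring, at 185 ± 8.25 TPM in complex V. The low places of Ndufb2 and Atp5g1 depend on the transcript lengths used, 2413 and 2666 bases, where the set's median was 838. Before division by length, Atp5g1 (217.5, 211 and 224 CPM) was above Atp5mpl of the same complex (91, 93.5 and 92.45 CPM). Ndufb2 (51.5, 49.1 and 46.4 CPM) overlapped Ndufc1 (51.0, 44.9 and 44.1 CPM).

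The adult untreated wild type gave nearly the same order. Atp5b was at 1823 ± 156 TPM, Cox4i1 at 1149 ± 28.4 TPM, Atp5a1 at 1112 ± 60.0 TPM and Cox8a at 848 ± 27.5 TPM (SD, n = 3). Ndufa4 was again the highest of the complex I set at 721 ± 46.5 TPM and Atp5g1 the lowest of complex V at 111 ± 14.1 TPM, with the same limit from its length. In complex III, Uqcr11 at 539 ± 43.9 TPM and Uqcrc1, a core subunit, at 514 ± 55.0 TPM did not differ beyond their spread. In complex II, Sdha, the flavoprotein that oxidises succinate, was at 322 ± 8.19 TPM and Sdhd at 314 ± 11.8 TPM, a pair that did not differ beyond their spread, and Sdhb, the iron-sulfur subunit, was lower at 208 ± 12.15 TPM. Summed over the set, the subunit genes made up 3.21 to 3.25% of the TPM of protein-coding genes in the flox control and 2.52 to 2.63% in the adult wild type. Stage and tissue differ together between these groups, and no test was made.

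The isoform genes known from other tissues were low throughout. Cox4i2, the form of Cox4 known from lung and from low oxygen, was at 17.8 ± 2.26 TPM in the flox control and 1.955 ± 0.891 TPM in the adult wild type. Cox6a2, the form of Cox6a known from heart and skeletal muscle, was at 7.765 ± 4.25 and 0.639 ± 0.578 TPM. As a share of the Cox4i1 and Cox4i2 pair, Cox4i2 made up 1.32, 1.08 and 1.15% in the flox control libraries and 0.252, 0.158 and 0.0982% in the adult wild type. Ndufa4l2, a relative of Ndufa4 known to rise in low oxygen, was at 1.42 ± 0.534 TPM in the flox control and had no count in any of the 3 wild-type libraries. Cox8b, a muscle form of Cox8, had no count in either control group. Cox6b2, Cox7a1, Cox7b2 and Cox8c were not analysed here.

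Promoter windows in RefSeq (GRCm38.p6), from 250 bases before to 50 after the gene start, were matched for 56 of the 71 genes, and for 35 of them the start lay within 50 bases of the GENCODE M21 gene start. Each window was searched on both strands for a core NRF1 motif (GCGC, any base, then TGCGC), an ETS motif (CCGGAAG), a YY1 motif (AAGATGGCG) and a TATA box (TATAAA). The NRF1 motif was in 15 of the 56 (26.8%) and in 7.17% of the windows of all 17492 protein-coding genes. The ETS motif was in 21.4% against 12.9%, the YY1 motif in 12.5% against 2.14%, and the TATA box in 10.7% against 14.8%. A match describes letters and not binding. The 250 bases before the start follow for 1 gene of each complex, the one with the largest fall at 10000 against 1250 ppm among those that passed the test, had an NRF1, ETS or YY1 motif there and had a start near that of GENCODE. Capitals mark matches to these 3 motifs and not to the TATA box.
Ndufa11: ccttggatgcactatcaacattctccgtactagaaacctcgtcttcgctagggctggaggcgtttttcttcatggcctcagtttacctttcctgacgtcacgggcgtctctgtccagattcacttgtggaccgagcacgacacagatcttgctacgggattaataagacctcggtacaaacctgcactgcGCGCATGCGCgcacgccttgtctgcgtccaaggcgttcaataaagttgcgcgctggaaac
Sdhd: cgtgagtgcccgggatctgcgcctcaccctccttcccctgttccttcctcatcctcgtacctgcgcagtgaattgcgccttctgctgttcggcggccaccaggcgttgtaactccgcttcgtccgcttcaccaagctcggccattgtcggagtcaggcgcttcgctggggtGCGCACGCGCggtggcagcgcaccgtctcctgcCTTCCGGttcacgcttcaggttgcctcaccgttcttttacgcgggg
Uqcr11: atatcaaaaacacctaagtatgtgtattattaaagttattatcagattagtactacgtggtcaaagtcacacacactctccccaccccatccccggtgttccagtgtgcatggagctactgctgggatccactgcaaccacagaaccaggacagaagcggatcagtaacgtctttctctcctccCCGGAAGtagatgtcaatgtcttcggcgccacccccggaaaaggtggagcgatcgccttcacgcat
Cox6b1: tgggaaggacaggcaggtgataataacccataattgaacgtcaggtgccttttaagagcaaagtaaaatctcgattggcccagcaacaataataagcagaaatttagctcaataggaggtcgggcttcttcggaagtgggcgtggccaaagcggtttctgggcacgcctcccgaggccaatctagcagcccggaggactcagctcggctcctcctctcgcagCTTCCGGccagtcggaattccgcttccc
Atp5l: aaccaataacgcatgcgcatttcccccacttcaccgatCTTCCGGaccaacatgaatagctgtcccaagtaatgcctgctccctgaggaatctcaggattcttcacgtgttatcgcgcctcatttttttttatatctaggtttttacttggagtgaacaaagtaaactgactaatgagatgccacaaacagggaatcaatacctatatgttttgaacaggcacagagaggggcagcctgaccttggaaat

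These stretches lie at chr17:56717512-56717761 (plus strand) for Ndufa11, an accessory subunit of complex I, at chr9:50603850-50604099 (minus strand) for Sdhd, at chr10:80406822-80407071 (minus strand) for Uqcr11, at chr7:30626115-30626364 (minus strand) for Cox6b1, which sits on the intermembrane side of complex IV, and at chr9:44920743-44920992 (minus strand) for Atp5l, the g subunit of ATP synthase. Ndufa11 holds an NRF1 motif that ends 50 bases before the start. Sdhd holds an NRF1 motif 69 bases and an ETS motif 39 bases before it. The other 3 hold an ETS motif, 59 bases before the start in Uqcr11, 21 in Cox6b1 and 205 in Atp5l. The Atp5l stretch also holds a TATA box match on the opposite strand, left in lower case. Among matched genes, 29.4% of the 34 that fell at 10000 against 1250 ppm held the NRF1 motif, and 23.8% of the 21 that did not pass the test. For the ETS motif these shares were 17.6% and 28.6%.

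**Figure D1:**
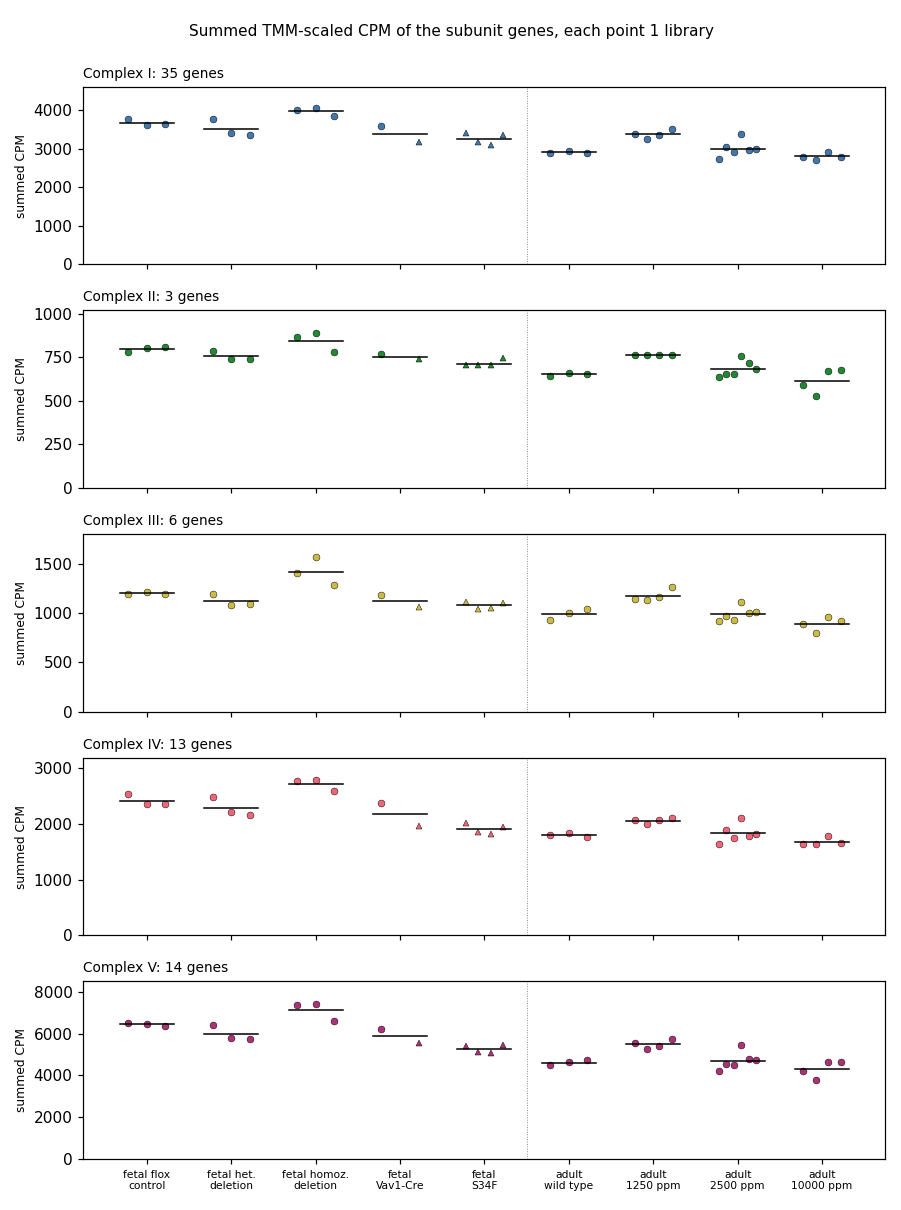
Summed TMM-scaled CPM of the subunit genes of each complex (y axis) in the 9 groups (x axis), with 1 point per library, triangles for batch B and a bar at the group mean. Fetal and adult libraries were scaled separately. For complex III, the homozygous deletion lies at 1285 to 1568 CPM, above the flox control at 1192 to 1211 CPM, and 1250 ppm at 1135 to 1259 CPM lies above 10000 ppm at 794 to 961 CPM.

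Summed by complex as TMM-scaled CPM, all homozygous deletion libraries lay above all flox control libraries in complexes I, III, IV and V, and the groups overlapped in complex II. Complex I stood at 3770, 3630 and 3650 CPM in the flox control, 3779, 3407 and 3361 CPM in the heterozygous and 4013, 4055 and 3861 CPM in the homozygous deletion. Complex II stood at 783, 806.5 and 811.5 CPM in the flox control, 789, 742 and 742 CPM in the heterozygous and 864, 892 and 778 CPM in the homozygous deletion. In both complexes heterozygous replicate 3 was the highest of its group. Complex III stood at 1192, 1211 and 1192 CPM in the flox control, 1197, 1085 and 1088 CPM in the heterozygous and 1402, 1568 and 1285 CPM in the homozygous deletion. Complex IV stood at 2535, 2369 and 2354 CPM in the flox control, 2481, 2208 and 2164 CPM in the heterozygous and 2767, 2792 and 2586 CPM in the homozygous deletion. Homozygous replicate 4 was the lowest of its group in all 5 complexes. Complex V stood at 6506, 6468 and 6359 CPM in the flox control, 6405, 5793 and 5753 CPM in the heterozygous and 7362, 7412 and 6624 CPM in the homozygous deletion. In TPM this order did not hold. The complex I sum was 9426, 9367 and 9480 TPM in the flox control and 9256, 9182 and 9281 TPM in the homozygous deletion, so every deletion library was below every control, and for the other 4 complexes the TPM sums of these groups overlapped. Against the heterozygous deletion, the homozygous libraries were higher in TPM without overlap in complex III (2693 to 3050 against 2548 to 2659 TPM), and the other 4 complexes overlapped. The sums were not tested.

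Homozygous deletion of U2af1 came with small rises of some subunit mRNAs, while the share of subunit genes that passed in either direction was below that of all genes. Against the flox control, 21 of 70 tested genes passed at an adjusted p under 0.05 (edgeR's quasi-likelihood test, Benjamini-Hochberg adjusted over all genes), 18 of them higher and 3 lower. Of all 12678 genes tested, 41% passed, 18.5% as higher and 22.4% as lower, while 30% of the subunit genes passed in all. By direction, the share of subunit genes that rose was above that of all genes, and the share that fell was below it. The median log2 fold change was 0.12 over the subunit genes and -0.02 over all genes. By complex it was 0.10 for complex I, 0.08 for II, 0.29 for III, 0.12 for IV and 0.13 for V. The passing counts were 9 higher and 1 lower of 35 in complex I, 1 lower of 3 in II, 4 higher of 6 in III, 1 higher and 1 lower of 12 in IV, and 4 higher of 14 in V. The share that rose was above the 18.5% of all genes in complexes I, III and V and below it in II and IV. In either direction 28.6% passed in complex I, 33.3% in II, 66.7% in III, 16.7% in IV and 28.6% in V. Only complex III, with 6 genes, was thus above the 41% of all genes.

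Cox7a2, a small subunit of complex IV, had the largest rise. Its CPM was 136, 127 and 126 in the flox control libraries and 180.5, 199.6 and 175 after homozygous deletion. All 3 deletion libraries were above all 3 controls, with a log2 fold change of 0.48 ± 0.07 (SE; edgeR adjusted p = 0.0003). In complex III, Uqcrfs1 encodes the Rieske iron-sulfur protein that passes electrons toward cytochrome c. It rose from 177, 166.5 and 173 CPM to 226.5, 245.5 and 206 CPM, by 0.36 ± 0.07 (SE; edgeR adjusted p = 0.00256) on the log2 scale. Uqcrb, which binds ubiquinone with cytochrome b, went from 94.55, 103 and 97.4 CPM to 129, 136 and 113 CPM, a log2 fold change of 0.33 ± 0.07 (SE; edgeR adjusted p = 0.00348). Neither gene's groups overlapped. The core gene Uqcrc1 was at 423, 429 and 432 CPM in the controls and 467, 519 and 424 CPM in the deletion, so its groups overlapped, and it did not pass (edgeR adjusted p = 0.274).

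In complex I the rises were in accessory subunits. Ndufb3, a membrane-arm subunit, went from 69.1, 62.1 and 60.6 CPM to 77.55, 81.3 and 83.9 CPM with a log2 fold change of 0.31 ± 0.07 (SE; edgeR adjusted p = 0.00492). Ndufs5, an accessory subunit on the intermembrane side, went from 63.35, 56.6 and 61.9 CPM to 74.95, 78.1 and 73.7 CPM (0.29 ± 0.07 SE, edgeR adjusted p = 0.00772). The core genes did not pass: Ndufs1, the largest iron-sulfur subunit, had a log2 fold change of 0.09 ± 0.06 and Ndufv1, which binds NADH, of -0.13 ± 0.07. In complex V, Atp5g1 went from 217.5, 211 and 224 CPM to 279.5, 273 and 249.5 CPM (0.27 ± 0.07 SE, edgeR adjusted p = 0.00794). Atp5e, the epsilon subunit of the stalk, went from 122, 110.2 and 109 CPM to 129.5, 148 and 129 CPM (0.22 ± 0.08 SE, edgeR adjusted p = 0.0414). All 4 genes were free of overlap between the groups. The catalytic pair did not pass, with log2 fold changes of 0.11 ± 0.07 for Atp5a1 and 0.12 ± 0.07 for Atp5b. In complex II, Sdhb fell from 167, 157 and 158 CPM to 149, 145 and 129 CPM, without overlap, by 1.16-fold (log2 fold change -0.22 ± 0.06 SE, edgeR adjusted p = 0.0217), whereas Sdha had 0.08 ± 0.06 and did not pass.

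The 2 other genes called lower were isoforms at low level. Cox6a2 was at 3.925, 1.46 and 1.67 CPM in the controls and 0.347, 0.546 and 0.158 CPM after homozygous deletion, a log2 fold change of -2.72 ± 0.48 (SE; edgeR adjusted p = 0.00125). Its counts were 250, 61 and 99 in the controls and 16, 31 and 5 in the deletion libraries. The last was under the filter's minimum of 10, so the deletion group by itself would not have passed the filter. Ndufa4l2 was at 0.345, 0.67 and 0.726 CPM in the controls and 0.108, 0.123 and 0.158 CPM after deletion, a log2 fold change of -2.19 ± 0.45 (SE; edgeR adjusted p = 0.00295). Its counts were 22, 28 and 43 in the controls and 5, 7 and 5 in the deletion libraries, the latter all under the filter's minimum of 10. Cox6a2 and Ndufa4l2 thus passed the filter only through the groups where they are high, so their values are a description and support nothing. Both were free of overlap between the groups. Each lies on the strand opposite another gene: the log2 fold change of Itgad, opposite Cox6a2, was -1.29 (edgeR adjusted p = 0.137), and that of Shmt2, opposite Ndufa4l2, 0.12 (edgeR adjusted p = 0.243). Cox4i2 was at 6.75, 5.05 and 5.39 CPM in the controls and 5.87, 4.66 and 2.84 CPM after deletion, with overlap, and did not pass.

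The summed level of the set was 14790, 14480 and 14370 CPM in the flox control and 16410, 16720 and 15140 CPM after homozygous deletion, without overlap. On scales that do not use TMM the whole set overlapped between the groups, and complex I ran the other way in TPM, as given above. The set took 1.425, 1.41 and 1.41% of all counts in the controls and 1.45, 1.47 and 1.39% after deletion, and 3.21 to 3.25% and 3.17 to 3.28% of protein-coding TPM. By gene, 36 of 70 were above the control in all pairs of libraries and 4 below, against 25.7% and 24.9% of all genes. Median-ratio factors in place of TMM gave 24 passing genes, 21 higher and 3 lower.

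Markers of other cells also differed in this comparison. All 11 hepatocyte markers were lower after homozygous deletion, with a summed level of 12.3 to 32.6 CPM against 105 to 678 CPM in the flox control. All 5 B-cell markers were lower, at 24.8 to 26.3 against 60.85 to 124 CPM, as were 4 of 7 erythroid markers (518 to 567.5 against 731 to 1196 CPM) and all 5 megakaryocyte markers (78.1 to 119 against 176.5 to 250.2 CPM). Of the macrophage markers 7 of 8 were lower and 1 higher, with a summed level of 39.5 to 61.7 against 93.8 to 101 CPM. Of the T-cell markers 3 of 4 were lower (1.02 to 1.1 against 2.97 to 6.52 CPM), and of the mast cell and basophil markers 3 of 5 were higher (616 to 711 against 339.5 to 398 CPM). Of the neutrophil granule markers 5 of 6 were higher, with sums that overlapped (15980 to 18640 against 14970 to 21650 CPM). Markers of the sorted cells themselves differed too. Of 7 cKit-positive progenitor markers 2 were higher and 3 lower, with sums that overlapped (2528 to 2826 against 2734 to 2802 CPM). None of the hepatocyte, B-cell, erythroid and megakaryocyte markers was at 0 in all libraries of either group, whereas Cd163 (macrophage) and Cd3e (T cell) were at 0 in the deletion libraries and Cd8a (T cell) in both groups. Apart from the neutrophil granule and cKit-positive progenitor markers, the summed levels of these lists did not overlap between the groups. The mean log2 CPM of these 2 lists did not overlap either. For neutrophil granule markers it was 8.96, 8.18 and 8.12 in the flox control and 9.51, 10 and 10.1 after deletion. For cKit-positive progenitor markers it was 8.19, 8.19 and 8.13 in the flox control and 7.95, 7.8 and 7.61 after deletion. All these lists and the genotype therefore cannot be told apart. With the mean hepatocyte level as a covariate, 3 subunit genes passed (2 higher and 1 lower), with the mean erythroid level 12 (11 higher), and with the mean B-cell level 1. With the B-cell level the log2 fold changes turned to 0.16 for Sdhb and 1.47 for Cox6a2, and neither passed. Leaving out 1 library also changed the count by over 1.5 times: 10 passed without flox control replicate 4, 13 without flox control replicate 5 and 13 without homozygous replicate 3.

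**Figure D2:**
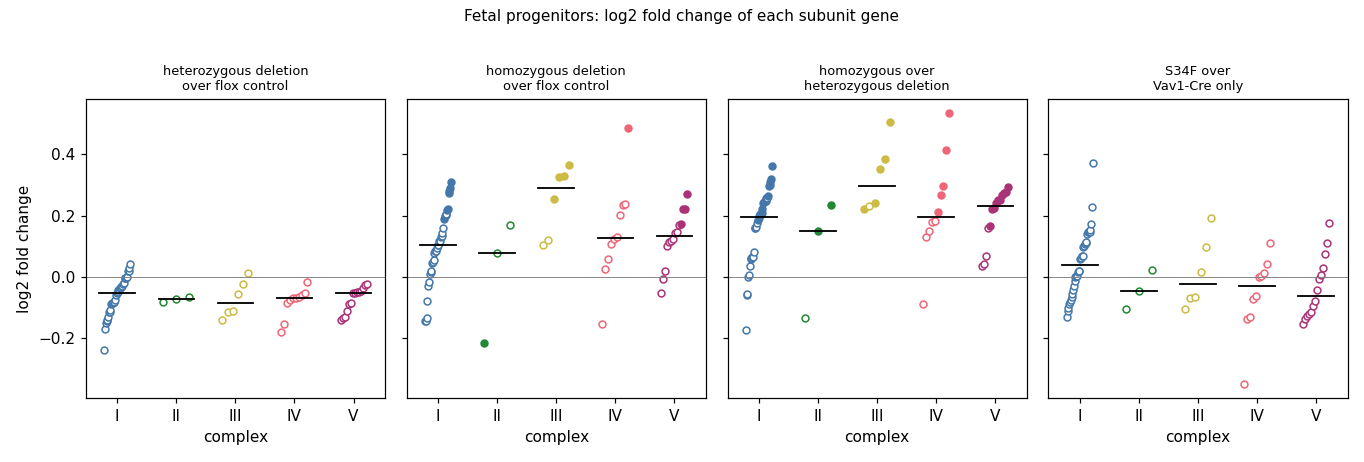
Log2 fold change (y axis) of each subunit gene, by complex (x axis), in the 4 fetal comparisons. Filled points passed an adjusted p of 0.05 in edgeR, open points did not, and the bar is the median of the points shown. Cox6a2, Ndufa4l2 and Cox4i2 are left out. Most points lie above 0 in the comparisons of the homozygous deletion, and none is filled for the heterozygous deletion or for S34F.

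Heterozygous deletion gave no passing subunit gene. Against the flox control, 0 of 70 passed in edgeR's quasi-likelihood test and 0 in DESeq2, against a background of 0.0316% of all genes in edgeR. At an unadjusted p under 0.05 there were 2, Ndufs1 and Ndufc2, a membrane-arm subunit of complex I, both lower. The median log2 fold change was -0.06, and 62 of 70 were below 0. Summed levels were 14650, 13230 and 13110 CPM in the heterozygous libraries, so replicate 3 was within the control range and the other 2 below it. Its markers differed likewise: replicate 3 had a summed hepatocyte marker level of 128 CPM, the other 2 52.5 and 56.35 CPM.

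Set against the heterozygous deletion, the homozygous deletion showed rises in all 5 complexes. Of 70 genes, 41 passed in edgeR's quasi-likelihood test, 39 higher and 2 lower, against a background of 42.3% in either direction and 19.8% higher. The homozygous libraries are shared by both comparisons. The largest rise was again that of Cox7a2, at 132, 123.5 and 118.5 CPM in the heterozygous libraries (log2 fold change 0.54 ± 0.07 SE, edgeR adjusted p = 0.000158). Uqcrfs1 followed at 168, 149 and 149 CPM (0.51 ± 0.07 SE, edgeR adjusted p = 0.000364), and Cox7c, another small complex IV subunit, at 224, 186 and 175 CPM in the heterozygous and 288, 264 and 246.5 CPM in the homozygous libraries (0.41 ± 0.09 SE, edgeR adjusted p = 0.00437). Core genes of complexes I and V passed here as well. Ndufs1 was at 130.4, 130.5 and 135 CPM in the heterozygous and 161.5, 169 and 156.5 CPM in the homozygous libraries (0.26 ± 0.06 SE, edgeR adjusted p = 0.00357). Atp5b was at 2111, 1892 and 1875 CPM in the heterozygous and 2507, 2440 and 2221 CPM in the homozygous libraries (0.25 ± 0.07 SE, edgeR adjusted p = 0.0111). Cox5a, a nuclear-encoded complex IV subunit, also passed, at 114.5, 109 and 109.5 CPM in the heterozygous and 136.5, 162.5 and 120.1 CPM in the homozygous libraries (0.30 ± 0.09 SE, edgeR adjusted p = 0.0226). For these 3 the groups did not overlap. Sdhb did not pass (-0.13 ± 0.06), and Cox6a2 and Ndufa4l2 were again lower, both with the same limit from the filter. The count was 14 without heterozygous replicate 4, 14 without heterozygous replicate 5 and 26 without homozygous replicate 3. With the mean B-cell level as a covariate it was 0, Ndufs1 turned to -0.17 and Cox6a2 to 1.45 on the log2 scale, and that level did not overlap between the groups (71.3 to 94.9 CPM in the heterozygous and 24.8 to 26.3 CPM in the homozygous libraries). By list, 5 of 11 hepatocyte, 7 of 8 macrophage, 3 of 4 T-cell, 4 of 5 megakaryocyte, 1 of 7 erythroid and all 5 B-cell markers were lower in the homozygous libraries. Higher were 5 of 6 neutrophil granule, 4 of 5 mast cell and basophil and 1 of 8 macrophage markers. Of 7 cKit-positive progenitor markers 2 were higher and 3 lower. Their sums were 2528 to 2826 CPM in the homozygous and 2854 to 2979 CPM in the heterozygous libraries, without overlap. In the heterozygous libraries the summed levels were 52.5 to 128 CPM for hepatocyte, 4.36 to 5.38 for T-cell, 204.5 to 213 for megakaryocyte, 14010 to 15830 for neutrophil granule and 418 to 441 CPM for mast cell and basophil markers. None of these 5 overlapped the homozygous levels given above, so they, the B-cell and cKit-positive progenitor levels and the genotype cannot be told apart. The summed macrophage (46.4 to 74.1 CPM) and erythroid levels (417 to 1052 CPM) overlapped. The mean log2 CPM of the macrophage markers did not. It was 1.86, 1.3 and 1.11 in the heterozygous and -0.81, -0.269 and -0.399 in the homozygous libraries. The macrophage markers too therefore cannot be told apart from the genotype.

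Of 4 lists of genes around the chain, the tricarboxylic acid cycle enzymes had the highest share of passing genes after homozygous deletion. Against the flox control 78.6% of them passed, with 44.1% of the assembly factors, 47.1% of the electron carriers and coenzyme Q genes and 23.5% of the regulators. The background was 41% of all genes, 18.5% higher and 22.4% lower, so in either direction the assembly factors and carriers were near it and the regulators below it. The tricarboxylic acid cycle enzymes had 10 higher and 1 lower of 14, with the largest rise in Dld, a shared subunit of several mitochondrial dehydrogenases (0.38 ± 0.08 SE, edgeR adjusted p = 0.00282), and the only fall in Idh3g, a regulatory subunit of isocitrate dehydrogenase (-0.20 ± 0.06). The assembly factors had 12 higher and 3 lower of 34, a share above that of all genes as higher and below it as lower. Coa3, which acts in complex IV assembly, had the largest rise at 0.55 ± 0.07 (SE; edgeR adjusted p = 0.000195), and Ndufaf1, which acts in complex I assembly, the largest fall at -0.27 ± 0.08 (SE; edgeR adjusted p = 0.0165). The electron carriers and coenzyme Q synthesis genes had 4 higher and 4 lower of 17. Among them Coq8a, needed for coenzyme Q synthesis, fell by 2.61-fold (-1.38 ± 0.13 SE, edgeR adjusted p = 3.44e-05) and Coq10b, a coenzyme Q binding protein, rose by 0.48 ± 0.10 (SE; edgeR adjusted p = 0.00289). Of the regulators, 3 higher and 1 lower of 17 passed, with Polg, the mitochondrial DNA polymerase, the highest (0.65 ± 0.07 SE, edgeR adjusted p = 9.81e-05), and Ppargc1b, a coactivator of subunit genes, the lowest (-0.50 ± 0.11 SE, edgeR adjusted p = 0.00425). The lists were written with earlier results of these data known.

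The S34F allele gave no passing subunit gene. S34F shared batch B with 1 Vav1-Cre library, so with batch in the model the contrast sets 4 S34F libraries against that 1, which is assumed to vary like the other fetal groups. Of 70 genes, 0 passed in edgeR's quasi-likelihood test and 0 in DESeq2, against a background of 0.372% in edgeR. At an unadjusted p under 0.05 there were 3: Ndufv3, a complex I accessory subunit, higher, and Cox6c, a complex IV subunit, and Cox6a2 lower. Median log2 fold changes were 0.00 for the subunit genes and 0.02 for all genes. Cox6a2 was at 1.025, 0.8235, 0.662 and 0.638 CPM in the S34F libraries and at 2.08 and 2.62 CPM in the Vav1-Cre libraries of batches A and B. All 4 S34F values were below both, with a log2 fold change of -1.75 ± 0.50 that did not pass (edgeR adjusted p = 0.175). With no filter on low counts 2 genes passed, and within batch B alone 1, all lower.

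The 2 Vav1-Cre libraries themselves differed between batches. Of 69 genes with a mean of at least 1 CPM in fetal libraries, 51 were higher in the batch A library and 18 lower, with a median log2 ratio of 0.17. Cox7c was at 208.5 CPM in batch A and 131 CPM in batch B, Cox8a at 365 and 237 CPM, and Cox5a the other way, at 111.5 and 137 CPM. The 4 S34F libraries had 128, 119.9, 123 and 126.5 CPM of Cox7c and 236, 209, 206 and 216 CPM of Cox8a, all below the batch B control. These are single libraries, with no replicate check. S34F is therefore not set against the batch A groups here. In batch B the summed level was 12680, 11910, 11760 and 12600 CPM in the S34F libraries, on both sides of 12500 CPM in the Vav1-Cre library.

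**Figure D3:**
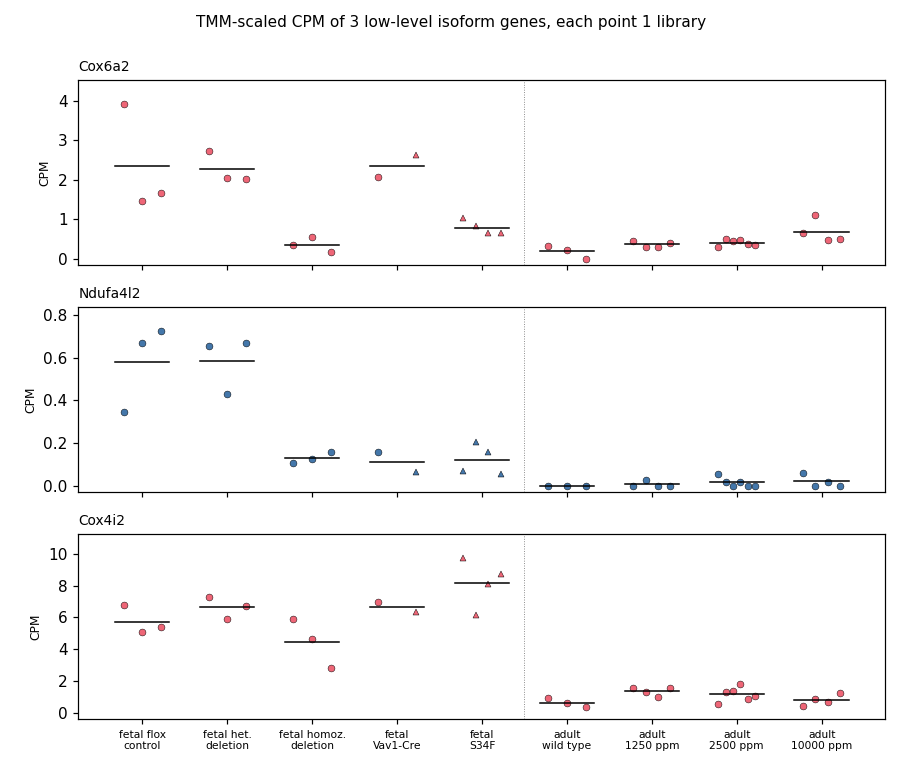
TMM-scaled CPM (y axis) of Cox6a2, Ndufa4l2 and Cox4i2 in each library of the 9 groups (x axis), triangles for batch B and a bar at the group mean; fetal and adult libraries were scaled separately. Cox6a2 is lowest among fetal groups after homozygous deletion, at 0.347, 0.546 and 0.158 CPM, and among the adult doses its highest value is 1.095 CPM at 10000 ppm.

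In adult marrow the subunit mRNAs were highest at the lowest doxycycline dose and lowest at the highest. The summed level was 12900, 12440, 12760 and 13390 CPM at 1250 ppm, 10150 to 12820 CPM at 2500 ppm (median 11190), 10120, 9442, 10970 and 10690 CPM at 10000 ppm and 10740, 11080 and 11110 CPM in the untreated wild type. The 1250 ppm libraries were above every 10000 ppm and wild-type library. Of 68 genes with a mean of at least 1 CPM, 60 had group means in the order 1250, 2500, 10000 ppm, and 53 were highest at 1250 ppm of all 4 adult groups. These orders were not counted over all genes, so the counts have no background and are a description only. They rest on the same libraries as the tests below. As a share of all counts the set was 1.249 to 1.285% at 1250 ppm, 1.01 to 1.34% at 2500 ppm, 0.928 to 1.17% at 10000 ppm and 1.05 to 1.1% in the wild type, the same order as in CPM.

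By complex the same order held for the outer doses: in all 5 complexes each 1250 ppm library was above each 10000 ppm and each wild-type library, and the 2500 ppm libraries overlapped at least 1 of the outer doses. Complex I was at 3255 to 3524 CPM at 1250 ppm, 2726 to 3392 CPM at 2500 ppm, 2704 to 2924 CPM at 10000 ppm and 2888 to 2935 CPM in the wild type. Complex II was at 761 to 765 CPM at 1250 ppm, 639 to 760.3 CPM at 2500 ppm, 526 to 678.5 CPM at 10000 ppm and 645 to 662 CPM in the wild type. The spread at 2500 ppm was the widest of the adult groups in complexes I, III, IV and V. Complex III was at 1135 to 1259 CPM at 1250 ppm, 917 to 1109 CPM at 2500 ppm, 794 to 961 CPM at 10000 ppm and 928 to 1045 CPM in the wild type. Complex IV was at 1996 to 2117 CPM at 1250 ppm, 1642 to 2101 CPM at 2500 ppm, 1641 to 1779 CPM at 10000 ppm and 1775 to 1833 CPM in the wild type. Complex V was at 5287 to 5727 CPM at 1250 ppm, 4224 to 5458 CPM at 2500 ppm, 3778 to 4639 CPM at 10000 ppm and 4482 to 4731 CPM in the wild type. The highest 2500 ppm library was replicate 4 in every complex. In TPM the 1250 ppm libraries were also above the wild type in all 5 complexes, and above 10000 ppm in all but complex II, where the doses overlapped (937 to 1000 TPM at 1250 ppm and 654 to 983.5 TPM at 10000 ppm).

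Between 10000 and 1250 ppm, 41 of 69 tested genes passed in edgeR's quasi-likelihood test, and all 41 were lower at 10000 ppm. The background was 18.1% of all genes in either direction and 10.6% as lower. The median log2 fold change was -0.29 over the subunit genes and 0.02 over all genes. By complex, 21 of 34 fell in complex I (median -0.28), 2 of 3 in II (-0.30), 4 of 6 in III (-0.42), 6 of 12 in IV (-0.28) and 8 of 14 in V (-0.30). The groups did not overlap for 47 of 69 genes that were lower and 1 that was higher, against 13.6% and 7.33% of all genes. That 1 gene was Cox6a2.

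**Figure D4:**
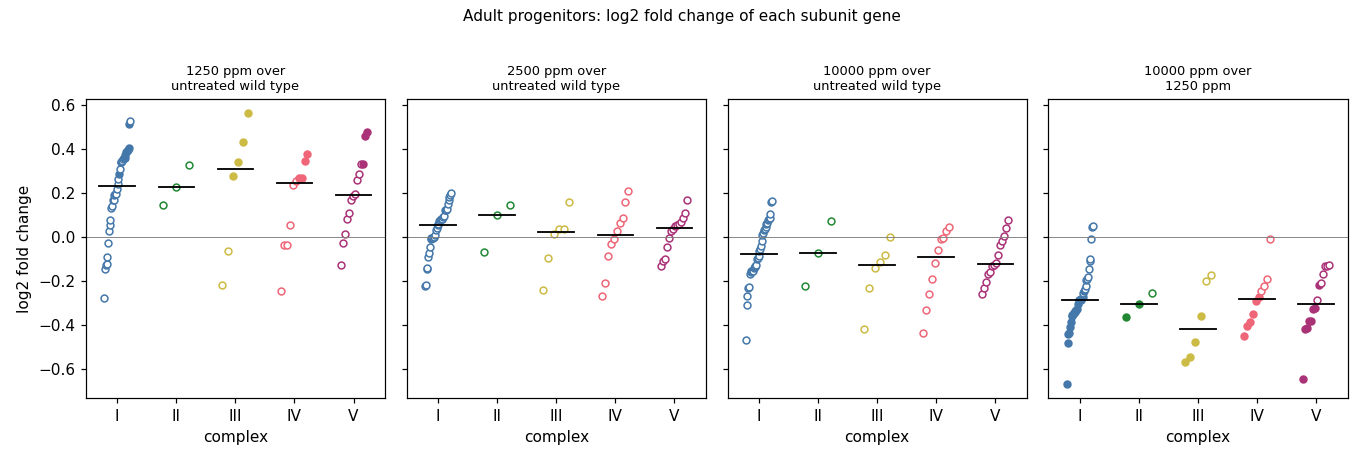
Log2 fold change (y axis) of each subunit gene, by complex (x axis), in 4 adult comparisons. Filled points passed an adjusted p of 0.05 in edgeR, open points did not, and the bar is the median of the points shown. Cox6a2 and Cox4i2 are left out, and Ndufa4l2 was not tested. In every complex most points lie above 0 for 1250 ppm over wild type and below 0 for 10000 over 1250 ppm.

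The genes with the largest falls covered every complex. In complex V, Atp5g1 was at 184, 151, 174 and 182 CPM at 1250 ppm and 110, 83.4, 128 and 122 CPM at 10000 ppm. The log2 fold change was -0.64 ± 0.13 (SE; edgeR adjusted p = 0.00625). Atp5g3, which encodes the same c subunit from another gene, was at 234.5, 232, 224 and 252 CPM at 1250 ppm and 170.4, 144, 200.1 and 191.5 CPM at 10000 ppm (-0.42 ± 0.09 SE, edgeR adjusted p = 0.00924). Atp5b was at 1867, 1754, 1811 and 1934 CPM at 1250 ppm and 1378, 1166, 1478 and 1519 CPM at 10000 ppm (-0.41 ± 0.09 SE, edgeR adjusted p = 0.00961). These 3 genes were lowest in 10000 ppm replicate 2. In complex III, Uqcr11 was at 153, 129, 149.9 and 164 CPM at 1250 ppm and 93.3, 98.1, 105 and 106 CPM at 10000 ppm (-0.56 ± 0.10 SE, edgeR adjusted p = 0.00451). Uqcrq, a small subunit bound to cytochrome b, was at 143, 126, 134 and 158 CPM at 1250 ppm and 94.9, 96.1, 100.4 and 93.2 CPM at 10000 ppm (-0.55 ± 0.11 SE, edgeR adjusted p = 0.00534). The core subunit Uqcrc1 was at 431, 406, 456 and 508 CPM at 1250 ppm and 338, 304, 336 and 316 CPM at 10000 ppm (-0.48 ± 0.08 SE, edgeR adjusted p = 0.00381). For all 6 genes, each 10000 ppm library was below each 1250 ppm library.

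In complex I, Ndufa12, an accessory subunit of the matrix arm, had the largest fold change but a wide spread, at 84.95, 62.7, 81.55 and 71.6 CPM at 1250 ppm and 37.8, 33.3, 58.3 and 59.8 CPM at 10000 ppm (-0.67 ± 0.18 SE, edgeR adjusted p = 0.0212). Ndufa5, also an accessory subunit of the matrix arm, was tighter at 47.8, 46.9, 47.3 and 49.97 CPM at 1250 ppm and 32.1, 31, 38.2 and 36.0 CPM at 10000 ppm (-0.48 ± 0.11 SE, edgeR adjusted p = 0.00785). Of the core genes Ndufv1 fell (log2 fold change -0.33 ± 0.09 SE, edgeR adjusted p = 0.017), and Ndufs1 did not pass (edgeR adjusted p = 0.0826). In complex IV, Cox7b, a small subunit, was at 194, 193, 197.5 and 201 CPM at 1250 ppm and 127.5, 134, 165 and 149 CPM at 10000 ppm (-0.45 ± 0.09 SE, edgeR adjusted p = 0.00685). Cox6b1 was at 242, 233, 247 and 259 CPM at 1250 ppm and 185.5, 177, 196 and 183 CPM at 10000 ppm (-0.40 ± 0.07 SE, edgeR adjusted p = 0.00431). Cox4i1 also fell (-0.35 ± 0.09 SE, edgeR adjusted p = 0.0126), whereas Cox5a overlapped between the doses and did not pass (edgeR adjusted p = 0.154). In complex II, Sdhd was at 183, 175, 174 and 185 CPM at 1250 ppm and 139, 118, 155 and 145 CPM at 10000 ppm (-0.36 ± 0.07 SE, edgeR adjusted p = 0.00609), and Sdha fell as well (log2 fold change -0.30 ± 0.08 SE, edgeR adjusted p = 0.0199). Sdhb overlapped between the doses and did not pass (edgeR adjusted p = 0.0918).

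Marker genes of other cells differed between these doses too. Of 6 neutrophil granule markers 3 were higher and 1 lower at 10000 ppm, with summed levels of 62410, 64090, 42060 and 16650 CPM against 30260, 30680, 36310 and 38040 CPM. Of 7 erythroid markers 2 were higher, at 413, 972, 435 and 502 against 329, 321, 423 and 243 CPM, and of 5 megakaryocyte markers 4 were higher, at 141, 224, 88.9 and 281 against 93.8, 79.9, 64.0 and 48.9 CPM. Of 4 T-cell markers 2 were higher (1.225 to 13.1 against 1.3 to 6.66 CPM), and of 3 tested hepatocyte markers 1 (24.6 to 36.0 against 23.0 to 33.9 CPM). These sums overlapped between the doses, and no marker of the first 4 lists was at 0 in a whole group. The mean log2 CPM of the megakaryocyte markers did not overlap. It was 4.16, 4.73, 3.51 and 4.91 at 10000 ppm and 3.43, 3.07, 2.66 and 2.35 at 1250 ppm. The megakaryocyte markers and the dose therefore cannot be told apart. Of 7 cKit-positive progenitor markers 1 was higher at 10000 ppm, with sums that overlapped (2291 to 3124 against 2126 to 2454 CPM). With the mean neutrophil granule level as a covariate, 22 subunit genes fell at 10000 ppm. With the mean erythroid level, no subunit gene and no other gene passed. Leaving out single libraries gave 19 to 38 passing genes, all lower, with 19 without 1250 ppm replicate 4, 22 without 1250 ppm replicate 5 and 27 without 10000 ppm replicate 2.

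Against the untreated wild type, 1250 ppm was the dose with passing subunit genes. Of 69 genes, 22 passed in edgeR's quasi-likelihood test and all were higher, against a background of 11.4% in either direction and 6.76% higher. The median log2 fold change was 0.24, against 0.01 over all genes. By complex, 11 of 34 passed in complex I, 0 of 3 in II, 4 of 6 in III, 4 of 12 in IV and 3 of 14 in V. All 1250 ppm libraries were above all wild-type libraries for 45 genes and below for 2, against 16.9% and 17.7% of all genes. This comparison shares its 1250 ppm libraries with that of 10000 against 1250 ppm, and all 22 genes are among the 41 that fell there.

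Uqcr11 had the largest passing rise, from 93.4, 102 and 106 CPM in the wild type to 153, 129, 149.9 and 164 CPM (0.57 ± 0.11 SE, edgeR adjusted p = 0.0118). Ndufa11 went from 47.9, 48.2 and 49.7 CPM to 70.0, 58.5, 67.55 and 81.2 CPM (0.51 ± 0.11 SE, edgeR adjusted p = 0.0125), and Ndufb10, a membrane-arm subunit of complex I, from 87.0, 86.7 and 88.1 CPM to 116, 106, 110.5 and 129.8 CPM (0.40 ± 0.09 SE, edgeR adjusted p = 0.0148). In complex V, Atp5g1 went from 111, 125 and 138 CPM to 184, 151, 174 and 182 CPM (0.48 ± 0.14 SE, edgeR adjusted p = 0.0424) and Atp5d, the delta subunit of the stalk, from 184, 187 and 207 CPM to 272, 239, 263 and 286 CPM (0.46 ± 0.10 SE, edgeR adjusted p = 0.0168). None of these groups overlapped. Cox4i1 and Cox6b1 rose in complex IV, by 0.38 ± 0.09 and 0.34 ± 0.08 on the log2 scale, and the core genes that rose were Ndufv1 and Ndufs7 in complex I and Uqcrc1 and Uqcrfs1 in complex III. All 5 B-cell markers were higher at 1250 ppm, at 39.0 to 52.3 CPM against 18.0 to 25 CPM in the wild type, without overlap, so they and the group cannot be told apart. Of 5 mast cell and basophil markers 3 were lower (97.8 to 186 against 247 to 257 CPM), and of 4 T-cell markers 2 were higher (1.3 to 6.66 against 0.801 to 1.04 CPM). Of 9 macrophage markers 4 were higher, while their summed level was lower, at 146 to 207 against 344.5 to 444 CPM. The sums of these 3 lists did not overlap, so they too cannot be told apart from the group. The count of 22 depended on single libraries: without wild-type replicate 1, 2 or 3 the count was 1, 0 and 13. Without 1250 ppm replicate 1, 4 or 5 it was 6, 9 and 5.

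The higher doses gave no passing subunit gene against the wild type. At 2500 ppm 0 of 69 passed in edgeR's quasi-likelihood test (background 0.487%) and 0 in DESeq2, with 8 at an unadjusted p under 0.05. At 10000 ppm 0 of 69 passed in edgeR (background 1.27%) with 12 at an unadjusted p under 0.05, and 5 passed in DESeq2, 4 of them lower. Without 10000 ppm replicate 3, 4 passed in edgeR, all lower. Median log2 fold changes were 0.04 at 2500 ppm and -0.09 at 10000 ppm. Of the 5 B-cell markers 4 were higher at each of these doses. Their sums were 31.9 to 64.75 CPM at 2500 ppm and 35.9 to 75.7 CPM at 10000 ppm, above the 18.0 to 25 CPM of the wild type. At 10000 ppm 2 of 7 erythroid markers were also higher, and at 2500 ppm 1 of 5 mast cell and basophil markers was lower. The 3 doses share the wild-type libraries, so their values stand side by side with no comparison between them. For Atp5g1 the log2 fold changes were 0.48 ± 0.14 at 1250 ppm, 0.06 ± 0.13 at 2500 ppm and -0.17 ± 0.14 at 10000 ppm. For Cox7a2 they were -0.04 ± 0.09, -0.21 ± 0.08 and -0.33 ± 0.08 in the same order.

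A slope on log2 dose over the 14 dosed libraries gave 21 of 69 passing genes in edgeR's quasi-likelihood test, 20 falling and 1 rising with dose, against a background of 10.7% in either direction and 5.32% falling. The steepest falls were those of Atp5g1 (-0.19 ± 0.05 SE, edgeR adjusted p = 0.0258, per 2-fold step of dose), Uqcr11 (-0.16 ± 0.04 SE, edgeR adjusted p = 0.0272) and Uqcrq (-0.15 ± 0.04 SE, edgeR adjusted p = 0.03). Atp5g1 at 2500 ppm lay between the outer doses, with 108 at the lowest, 125 at the median and 162 at the highest CPM, in replicate 4. The one gene that rose was Cox6a2, at 0.449, 0.299, 0.301 and 0.398 CPM at 1250 ppm, 0.289 at the lowest, 0.405 at the median and 0.51 at the highest at 2500 ppm and 0.657, 1.095, 0.462 and 0.505 CPM at 10000 ppm (0.32 ± 0.10 SE, edgeR adjusted p = 0.0495). The slope rests on single libraries: without 10000 ppm replicate 2 no gene passed, 1 passed without 10000 ppm replicate 1, and 1 passed when any single 1250 ppm library was left out. Cox6a2 did not pass with median-ratio factors (log2 slope 0.32) or without 10000 ppm replicate 2 (log2 slope 0.21).

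Around the chain, every gene of the 4 lists that passed between 10000 and 1250 ppm was lower. The shares were 64.3% of the tricarboxylic acid cycle enzymes, 29.4% of the electron carriers and coenzyme Q genes, 20.6% of the assembly factors and 17.6% of the regulators, against a background of 18.1% of all genes and 10.6% as lower. The shares of the assembly factors and regulators were near the background in either direction and above the 10.6% as lower. By count, 9 of 14 tricarboxylic acid cycle enzymes fell, with Mdh2, the mitochondrial malate dehydrogenase, the lowest (-0.40 ± 0.08 SE, edgeR adjusted p = 0.00627). Of the assembly factors 7 of 34 fell, Ndufaf6 most (-0.55 ± 0.14 SE, edgeR adjusted p = 0.0145). Of the electron carriers and coenzyme Q genes 5 of 17 fell, with Etfb, which brings electrons from fatty acid oxidation, at -0.67 ± 0.09 (SE; edgeR adjusted p = 0.00304), and Cyc1, the cytochrome of complex III that the naming rule leaves out, at -0.49 ± 0.09 (SE; edgeR adjusted p = 0.00466). Of the regulators 3 of 17 fell, with Polrmt, the mitochondrial RNA polymerase, at -0.51 ± 0.13 (SE; edgeR adjusted p = 0.0142), Yy1 at -0.31 ± 0.05 (SE; edgeR adjusted p = 0.00304) and Gabpa at -0.18 ± 0.06 (SE; edgeR adjusted p = 0.0403). Gabpa overlaps the subunit gene Atp5j on the other strand, so their reads cannot be told apart if strand was not used. No gene of these 4 lists passed as higher, against 7.53% of all genes. At 1250 ppm against the wild type the counts were 3 higher and 0 lower of 14, 4 higher and 0 lower of 34, 6 higher and 0 lower of 17 and 2 higher and 0 lower of 17 in the order tricarboxylic acid cycle, assembly, carriers and regulators, with Cyc1 at 0.51 ± 0.10 (SE; edgeR adjusted p = 0.0105) and Mdh2 at 0.47 ± 0.09 (SE; edgeR adjusted p = 0.0097). These are 21.4%, 11.8%, 35.3% and 11.8%, against 11.4% of all genes in either direction and 6.76% higher. The assembly factors and regulators were thus near the background in either direction and above it as higher, with 4 and 2 genes.

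Fold changes of the subunit genes followed the base composition of their transcripts in some comparisons. Transcripts of the set have 42.0 to 60.4% G and C, with a median of 51.6%. Over the 67 genes without the 3 low isoforms that were tested in each comparison, Spearman's rho between log2 fold change and transcript GC content was 0.74 for 10000 ppm, 0.63 for 2500 ppm and 0.58 for 1250 ppm against the wild type, and 0.56 for S34F. It was -0.09 for 10000 against 1250 ppm, -0.02 for the slope, -0.19 for the homozygous deletion against the flox control, -0.335 for it against the heterozygous deletion and 0.32 for the heterozygous deletion against the flox control. Over all genes tested it was 0.35 at 10000 ppm and 0.38 at 1250 ppm against the wild type. The 3 comparisons with the wild type share its libraries, and the points are genes of the same libraries and not replicates, so no p is given. For Uqcr11, with 58.9% GC, the log2 fold change at 10000 ppm against the wild type was 0.00, and for Uqcrb, with 42.2%, -0.42. With a correction of each library for transcript GC, 14 genes rose at 1250 ppm against the wild type in place of 22, and 42 fell at 10000 against 1250 ppm in place of 41.

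**Figure D5:**
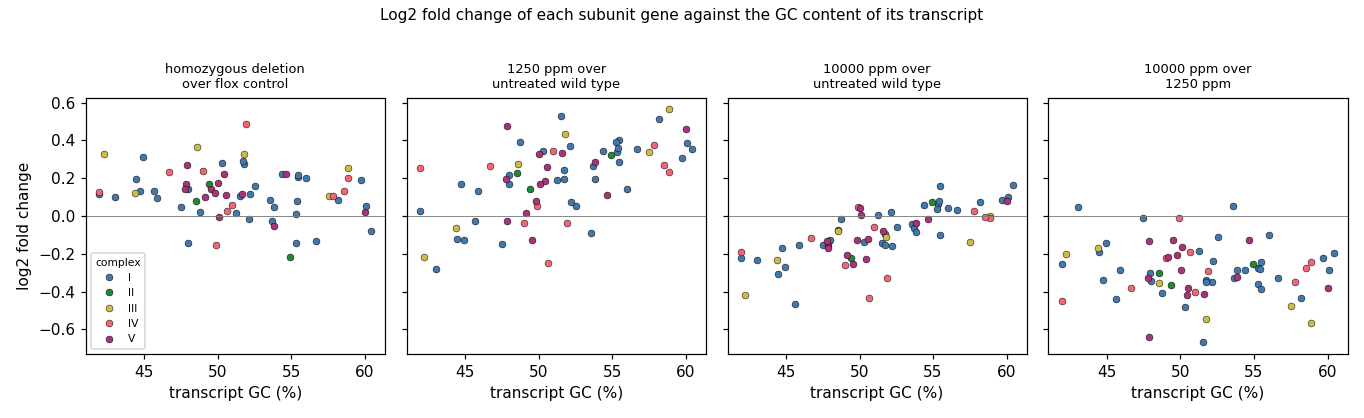
Log2 fold change (y axis) of each subunit gene against the GC content of its transcript in percent (x axis), coloured by complex, in 4 comparisons; Cox6a2, Ndufa4l2 and Cox4i2 are left out. Points lie higher toward the right for 1250 and 10000 ppm over the wild type (rho 0.58 and 0.74) and show little slope for 10000 over 1250 ppm (rho -0.09).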

How the data were processed

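RNA was measured in 32 libraries of sorted mouse progenitors. The authors deposited 1 table of gene counts, whole numbers per Ensembl gene and library that were not normalised. Reads were aligned with HISAT2 2.1.0 and annotated with GENCODE M21 (GRCm38), per the labels and the series' design text. The counting program, its use of strand and any filter are not given in the sources used here. Symbols came from GENCODE M21 for 27690 of the 27728 genes.

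From these counts, edgeR 4.0.16 (R 4.3.3) was run on all genes that passed its filterByExpr function (minimum count 10), with TMM factors, the quasi-likelihood test and Benjamini-Hochberg adjustment over all genes tested. A gene passed, and is said to have risen or fallen, at an adjusted p under 0.05. The deletion comparisons used the 9 batch A libraries of those groups, the S34F comparison all 15 fetal libraries with batch as a term, the adult comparisons all 17 adult libraries, and the slope the 14 dosed ones. All 71 subunit genes were counted, 70 passed the filter in the fetal fits (all but Cox8b) and 69 in the adult fits (all but Cox8b and Ndufa4l2). TPM used the length of the GENCODE principal transcript over protein-coding genes. DESeq2 1.42.0, other size factors, other filters, left-out libraries, a replicate term and marker levels as covariates were run as alternatives, and the edgeR procedure was tested on simulated data.

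Genes were named by a rule: 10 genes taken as core, with Cox4i1 and Cox5a standing for complex IV, and the tissue isoforms always, and in each comparison the 2 largest rises and 2 largest falls per complex among those that passed with a mean of at least 50 counts. Members, gene lists and this rule were chosen with earlier results of these data known. Genes named beside a count of 5 or fewer, Ndufs7, Yy1, Gabpa, and Cyc1 at 10000 ppm were picked after their values were seen. Replicates differed by more than counting noise (chi-square per degree of freedom 3.64 to 463 over 46 pairs). U2af1 is not reported here.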

Additional observations from a re-analysis of the deposited data

Results flagged for a closer look

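In groups of 4 to 10 libraries, 76 sets of values (sums by complex and single genes) were examined for 1 library far from the others, and 4 had one. Chance gives about 1 in 20. The summed level of complex II was 744 CPM in S34F replicate 4 and 703.5 to 707.3 CPM in the other 3 S34F libraries. Sdhb was at 136.6 CPM in replicate 4 at 2500 ppm, where the next library had 109.3 CPM and the lowest 93.5 CPM. Ndufa4l2 was at 0.0285 CPM in replicate 3 at 1250 ppm, which is 2 counts, and at 0 in the other 3 libraries of that dose. With a single library above 0, such a flag is fixed in advance. At 2500 ppm Ndufa4l2 was at 0.0543 CPM in replicate 1, with 0.017 CPM in the next library and 0 in the lowest. These are 3 counts against 1 and 0, so both Ndufa4l2 flags rest on a few counts and support nothing.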

How the results depend on the processing

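The counts below are of subunit genes that passed in edgeR unless DESeq2 is named. The heterozygous deletion and 2500 ppm against their controls gave 0 under every alternative run. Without a filter on low counts, 2 passed for S34F, 7 for 1250 ppm against the wild type and 21 for 10000 against 1250 ppm. Within batch B alone 1 passed for S34F. DESeq2 gave 5 for 10000 ppm against the wild type and 33 for the slope, and the rank of the dose gave 33. With only the compared groups in the fit, 41 passed for 1250 ppm against the wild type (39 higher) and 26 for 10000 against 1250 ppm.

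The main fits did not pair libraries by replicate number. Same-numbered deviations correlated at -0.162 to 0.144 over 7 fetal and -0.272 to 0.518 over 19 adult pairs. Of these, 1 fetal and 6 adult pairs were over 0.1. Pairs of different number were not set beside them, so pairing was neither shown nor excluded. With the replicate block, 16 passed for the homozygous deletion against the flox control, 25 against the heterozygous deletion, 2 for 1250 ppm against the wild type, 25 for 10000 against 1250 ppm and 0 for the slope.

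Leaving out single libraries gave 10 to 25 for the homozygous deletion against the flox control, 14 to 45 against the heterozygous deletion, 0 to 4 for 10000 ppm and 0 to 20 for 1250 ppm against the wild type, 19 to 38 for 10000 against 1250 ppm and 0 to 29 for the slope. Leaving out the batch B Vav1-Cre library could not be fitted.

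The following were chosen after seeing the data, except the hepatocyte level. For the homozygous deletion against the flox control, 3 passed with the mean hepatocyte, 12 with the erythroid and 1 with the B-cell level as a covariate. The B-cell level gave 0 against the heterozygous deletion. With it, log2 fold changes turned to 0.16 for Sdhb, 1.47 for Cox6a2 and 0.15 for Idh3g against the flox control, and to 1.45 for Cox6a2, -0.035 for Sdhd, -0.17 for Ndufs1 and 0.19 for Idh3g against the heterozygous deletion; none passed, and the cause was not tested. The neutrophil granule level gave 5 for 10000 ppm against the wild type, 22 for 10000 against 1250 ppm and 2 for the slope. The erythroid level gave 8 for 1250 ppm against the wild type, 0 for 10000 against 1250 ppm and 0 for the slope. A correction for transcript GC gave 1 for 10000 ppm and 14 for 1250 ppm against the wild type. Except where a value above shows it, the cause of each difference was not tested. Depth limits Cox6a2, Cox4i2 and Ndufa4l2, which lie at a few CPM or less.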
